A study of Mus musculus with 6 samples.

Results

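Genes for chromatin modifiers and remodellers were described in bone marrow macrophages that lack RKIP (KO) and in wild-type macrophages (WT). Members were chosen by gene name: names beginning with Kmt, Kdm, Setd, Smarc, Arid, Hdac or Ep300, or with Chd, Brd or Kat followed by a digit, without Kdm5c, Kdm5d and Kdm6a. The rule found 101 of the 27458 genes in the deposited table. The members fall into 8 classes: 18 methyltransferases (Kmt, Setd), 17 demethylases (Kdm), 15 Smarc genes, 10 Chd genes, 10 Arid genes, 12 deacetylases (Hdac), 10 acetyltransferases (Kat, Ep300) and 9 Brd genes. The name rule also takes in 6 non-coding genes: the pseudogenes Kdm4dl, Smarce1-ps1, Smarca5-ps, Hdac1-ps and Kat2b-ps, and the antisense gene Kdm6bos. Brd3os and Brd8dc, annotated as protein-coding, match by name only.

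The study measured RNA by sequencing in 3 KO libraries, from RKIP-/- mice, and 3 WT libraries, from RKIP+/+ mice. All 6 came from primary bone marrow cells treated with macrophage colony-stimulating factor (M-CSF), the growth factor that turns marrow progenitors into macrophages. RKIP, the Raf kinase inhibitor protein, is encoded by Pebp1, and the study asked what it does in macrophage differentiation. The labels used here give no strain, age or sex, no design of the deletion, and do not say whether each library is a separate animal or culture. P-values therefore rest on the spread among the 3 libraries of a genotype, and that spread may be technical.

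DNA in the nucleus is wound around histone proteins, and chemical marks on the histone tails help set which genes can be read. Methyltransferases and acetyltransferases write such marks, demethylases and deacetylases remove them, and proteins with bromodomains or chromodomains bind them. Remodelling complexes, such as BAF (with Smarc and Arid subunits), ISWI and NuRD (with Chd subunits), use ATP to slide or evict nucleosomes. In macrophages these proteins are known to prepare enhancers for inflammatory genes and to keep other genes silent. Many of them are very large proteins with long transcripts.

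Pebp1 had 0 counts in all 3 KO libraries, against 39.2, 33.2 and 39.0 FPKM in the WT libraries (a level scaled for transcript length and sequencing depth). With a floor of 12 counts set for each library at 0, Pebp1 was at least 413-fold lower (edgeR, adjusted p = 1.48e-10). Total estimated counts were 63607276 to 70059042 in KO and 53188659 to 55255365 in WT. All 10 macrophage markers were expressed above the filter on low values, and their summed level was 19649 to 19944 FPKM in KO and 21570 to 23087 FPKM in WT, with 3 markers higher (Adgre1, Csf1r and Mrc1) and 5 lower. Lyz2 alone made up 16555 to 16733 FPKM of the sum in KO and 18656 to 20142 FPKM in WT. The summed level of the other 9 markers went the other way, at 3094 to 3212 FPKM in KO and 2914 to 2946 FPKM in WT. Among these 9, Cd68, Fcgr1, Cd14 and C1qa were lower, as Lyz2 was, and Itgam and Mertk were not called. These calls are without the length and GC correction described below. With it, 3 of the 10 markers were higher and 3 lower. Cd68 and Cd14 were then not called (edgeR, adjusted p = 0.260 and 0.454). Of 13 neutrophil markers 9 were tested and 8 were lower. The summed level of all 13 was 16.8 to 17.6 FPKM in KO and 86.6 to 174 FPKM in WT. S100a8, S100a9, Ltf, Ngp, Camp, Lcn2 and Retnlg had KO means of only 0.0863 to 0.915 FPKM. They passed the filter through their WT values, so the count of lower markers was partly set by the filter. Csf3r, not called, and Mmp8, lower, made up most of the KO sum, at means of 9.43 and 4.69 FPKM. Of 8 proliferation genes 7 were lower, with sums of 86.9 to 98.0 FPKM in KO and 108 to 110.2 FPKM in WT. The 6 B cell markers summed to 4.94 to 4.97 FPKM in KO and 3.56 to 4.19 FPKM in WT, with 1 tested and higher. The 6 stromal markers summed to 832 to 938 FPKM in KO and 801 to 897 FPKM in WT, with 1 of 5 tested higher and 1 lower. The 2 T and NK cell markers found in the table summed to 0 FPKM in every KO library and at most 0.0362 FPKM in WT. The part of these other cells, and of proliferation, in the results below was not tested. In bulk RNA, fewer cells of a type and less RNA per cell cannot be told apart.

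More of the chromatin genes were higher than lower in KO, by small amounts. Of the 101 members, 90 passed the filter of a mean of at least 1 FPKM over the 6 libraries and were tested. Of these, 38 were higher (42.2%) and 4 lower (4.44%), and 48 did not pass the test (edgeR quasi-likelihood test, Benjamini-Hochberg adjusted p under 0.05). Of all 11636 genes tested, 20.3% were higher and 19.4% lower. With limma on log2(FPKM + 1), 62.8% of the calls over all genes were higher (2770 higher and 1639 lower), against 51.2% in edgeR, and 42 members were higher and 2 lower. Without KO library 3 or without WT library 2, 2 members were lower in edgeR, and without KO library 2, 6 were. The median log2 fold change of the tested members was 0.11, against -0.01 for all genes tested. Fold changes ran from a fall of 1.65-fold (Setd6) to a rise of 1.46-fold (Kdm7a). The edgeR fit scales the libraries itself, so its fold changes differ from ratios of mean FPKM. The median deviation of the members from their own mean (log2 CPM) was 0.05, 0.06 and 0.05 in the KO libraries and -0.08, -0.04 and -0.06 in the WT libraries. Each KO library thus lay above each WT library.

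Higher calls were more frequent among the members with long transcripts. The longest annotated transcript of the tested members had a median of 5384 bp, from 1077 to 19823 bp, against 3151 bp for all genes tested. Of the 21 members of 8000 bp and over, 16 were higher and 0 lower, and the median log2 fold change was 0.26. Outside the set, 65.3% of the 551 genes of that length were higher and 3.27% lower, with a median of 0.23. Of the 16 members of 6000 to 8000 bp, 9 were higher and 0 lower (median 0.18), and outside the set 48.8% were higher and 4.88% lower (median 0.16). Of the 27 members of 4000 to 6000 bp, 11 were higher and 1 lower (median 0.12), against 32.8% higher and 8.82% lower outside (median 0.08). The 21 members of 2000 to 4000 bp had 2 higher and 2 lower (median -0.07), against 12.6% higher and 17.6% lower outside (median -0.03). The 5 members under 2000 bp had 0 higher and 1 lower (median -0.06), against 4.43% higher and 37.6% lower outside (median -0.19). They include the pseudogenes Smarce1-ps1 and Hdac1-ps and the gene Brd3os, and their median is the value of Hdac1-ps. In every length bin but the shortest 2, both the members and the other genes had a positive median.

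**Figure D1:**
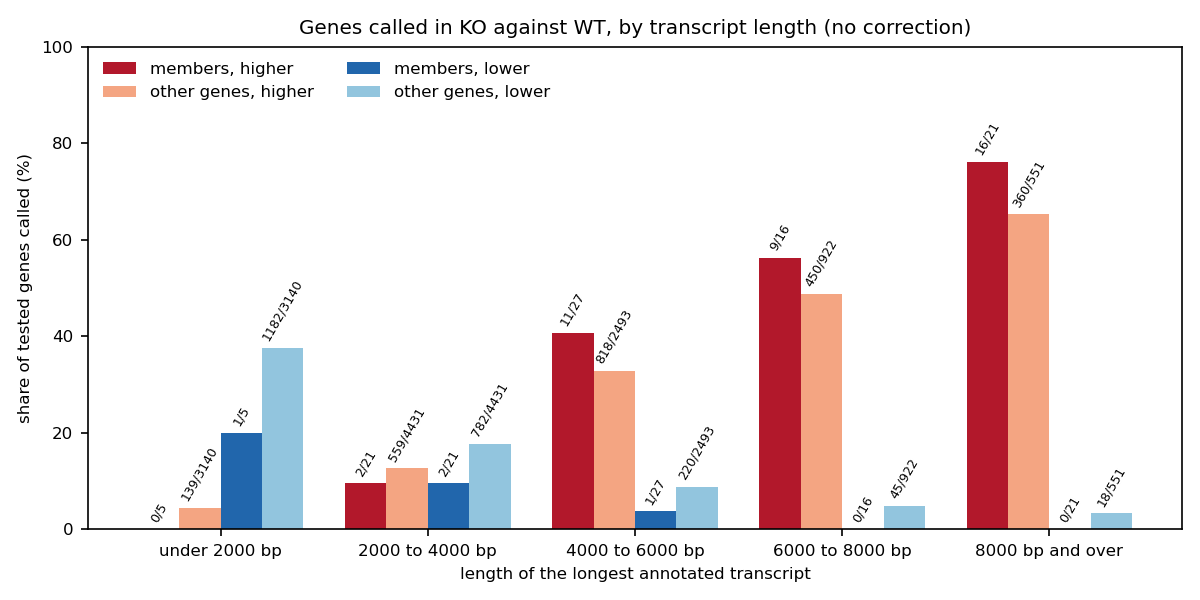
Share of tested genes called higher or lower in KO against WT (percent, vertical axis) in 5 bins of transcript length, for members of the chromatin set (dark bars) and all other tested genes (light bars), with the counts above each bar. At 8000 bp and over, 16 of 21 members and 360 of 551 other genes were higher.

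Across the 88 tested protein-coding members, the log2 fold change correlated with transcript length (Spearman rho 0.57). Across all 10438 tested protein-coding genes rho was 0.50. These are descriptions across genes of the same 6 libraries, and genes are not independent replicates. Among the members, rho was 0.48 with coding length, 0.47 with the span of the gene on the chromosome, 0.34 with the number of exons, -0.33 with GC content and 0.03 with the mean FPKM. When the trend of each library on length and GC content was taken out by an offset (the length and GC correction), rho with length was 0.11 in the members and 0.01 in all coding genes.

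**Figure D2:**
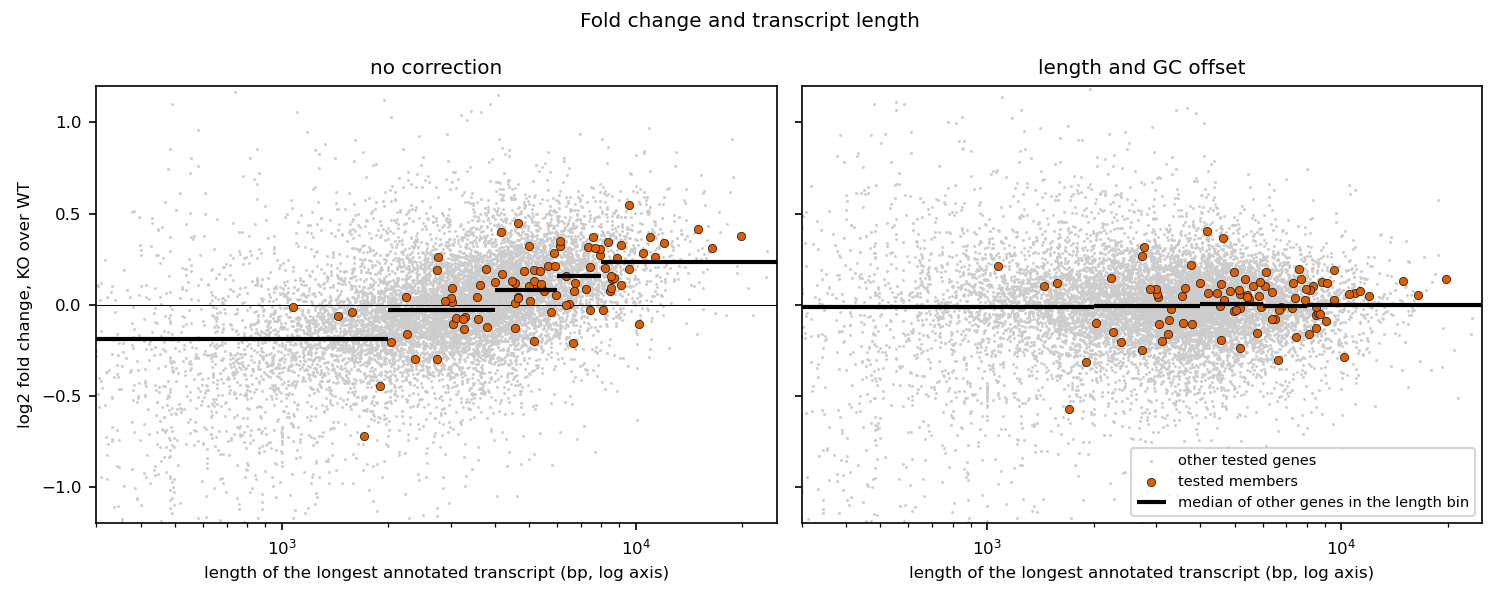
Log2 fold change of KO over WT (vertical axis) against the length of the longest annotated transcript in bp (horizontal log axis), without correction (left) and with the length and GC correction (right). Orange points are the 90 tested members, grey points other tested genes within the axis range, and black lines the median of the other genes in each length bin. Without correction the lines climb to 0.23 at 8000 bp and over, and with it they lie between -0.01 and 0.00.

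With the length and GC correction, 14 members were higher (15.6%) and 11 lower (12.2%), and their median log2 fold change was 0.05 (edgeR, adjusted p under 0.05). Of all genes tested, 14.2% were higher and 16.3% lower with it. Without KO library 3, 9 members were higher and 6 lower with the correction, and without WT library 2, 12 were higher and 4 lower. The 14 that were higher were also higher without correction: Kmt2c, Kmt2d, Kmt2e, Kmt5b, Kmt5c, Setd1b, Kdm7a, Smarca2, Smarcd2, Arid3a, Arid3b, Arid4a, Arid5b and Kat2b. The other 24 that had been higher no longer passed. Kmt5a, Setd6 and Hdac7 were lower in both fits, while Hdac1 was lower only without the correction. Setd3, Kdm6b, Smarce1, Smarcc1, Smarcb1, Chd7, Arid2 and Brd9 were lower only with it. A second form of the correction, chosen after seeing the data, took each gene's length from the ratio of its deposited count to its FPKM. With this form, called the implied length below, 20 members were higher and 10 lower, against 15.8% and 17.4% of all genes tested. Setd2, Kmt2a, Setdb1, Kdm5a, Smarca5, Arid1b, Arid1a and Kat6a were higher with it and not with the first form, and Hdac2 was lower. Kmt5b and Smarca2 were no longer higher, and Smarcb1 and Arid2 no longer lower. Higher in all 3 fits were 12 members, the 14 above without Kmt5b and Smarca2, and lower in all 3 were Kmt5a, Setd6 and Hdac7. A correction for length alone is not among these 3 fits. Of the 12, Kmt2c and Kmt2d at least did not pass with it, as given below. Without correction, long transcripts were higher inside and outside the set, with medians of 0.26 and 0.23 at 8000 bp and over. The length trend is confounded with genotype in this design. An effect of genotype on long transcripts and a difference between the KO and WT libraries from other sources cannot be told apart.

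**Figure D3:**
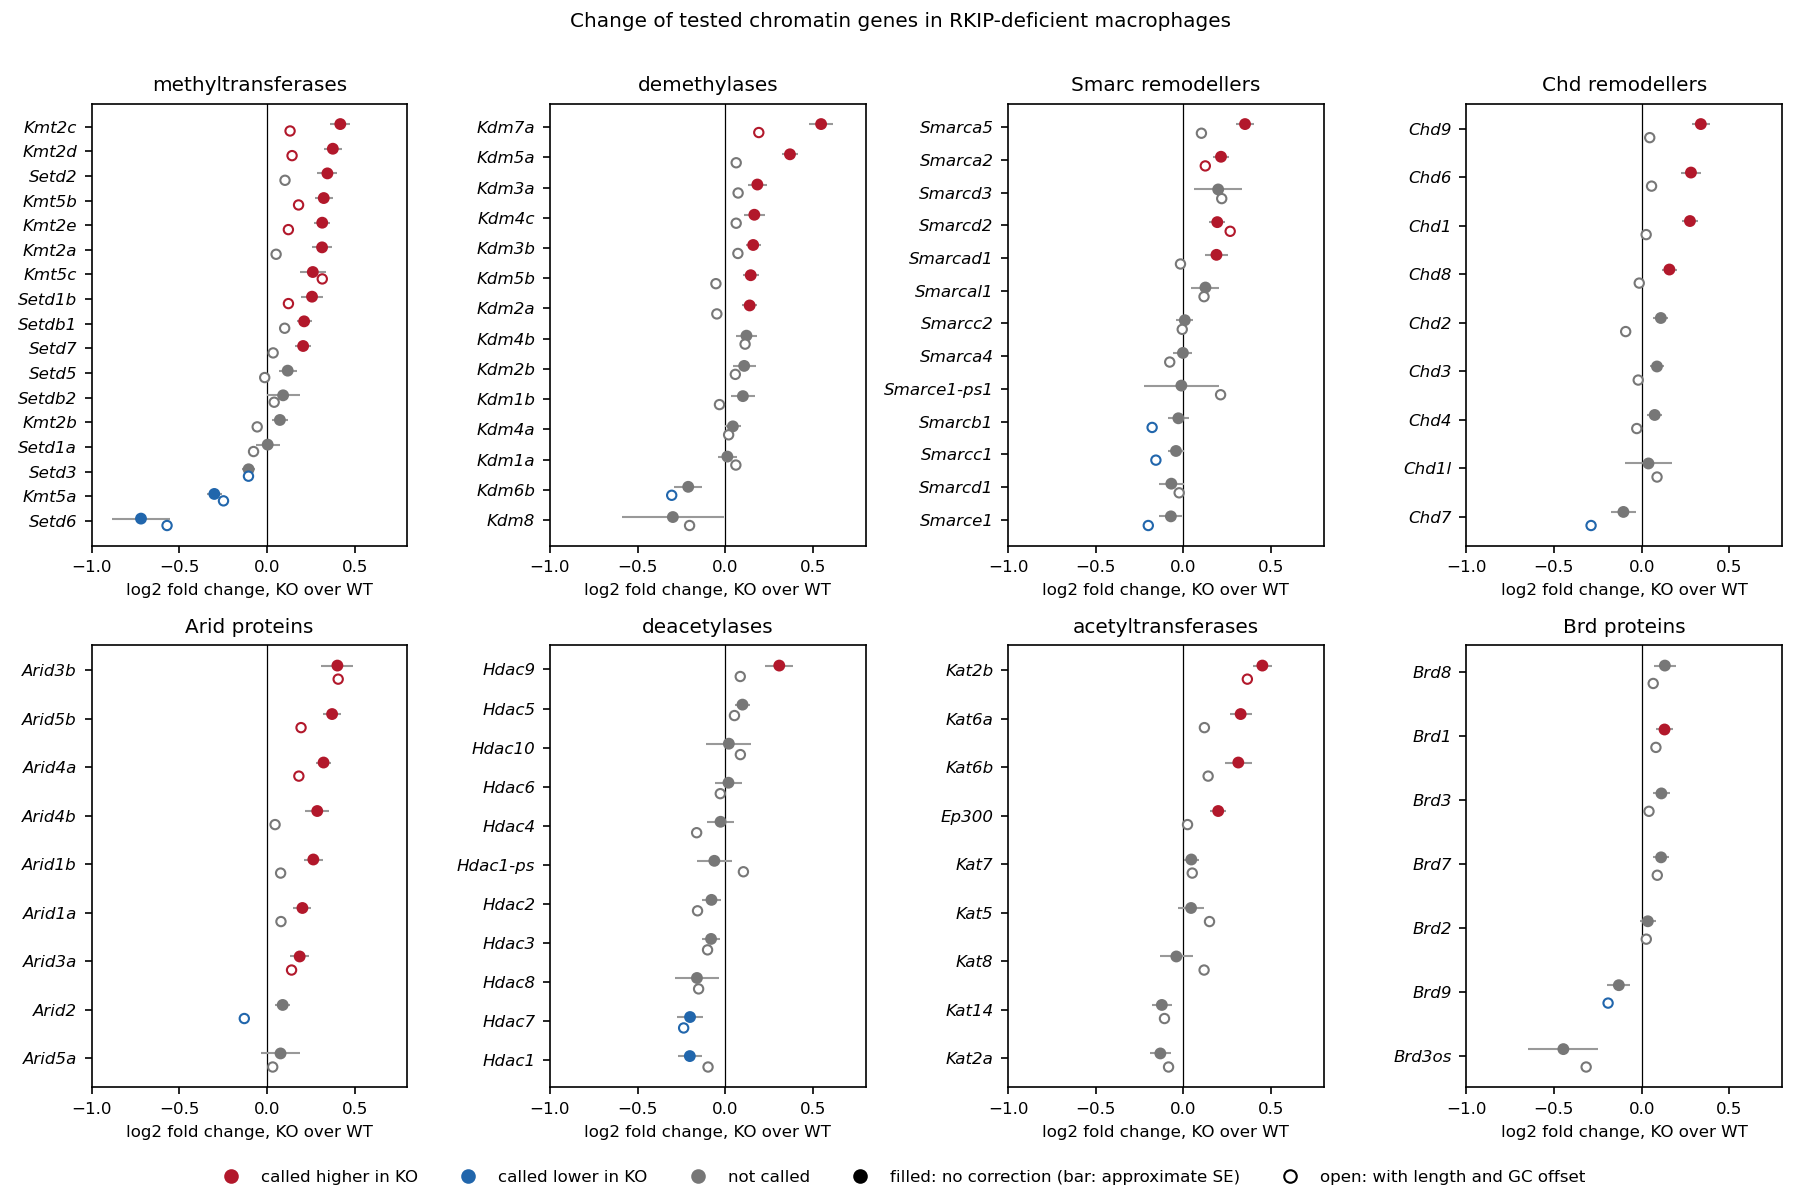
Log2 fold change of KO over WT (horizontal axis) for the 90 tested members by class, except 1 that is not drawn, without correction (filled points, bars show the approximate standard error) and with the length and GC correction (open points). Red marks genes called higher in KO, blue lower and grey not called. Without correction 38 points are red and 4 blue, and with correction 14 are red and 11 blue.

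Histone methyltransferases that write lysine 4 of histone H3 were among the members that rose. Of 17 tested methyltransferases, 10 were higher and 2 lower without correction (median log2 fold change 0.21, median length 6755 bp), and 6 were higher and 3 lower with it (median 0.05). Over all genes tested, the shares were 20.3% higher and 19.4% lower, and with correction 14.2% and 16.3%. Outside the set, 48.8% of genes of 6000 to 8000 bp, the bin of the class median, were higher and 4.88% lower without correction. All 5 Kmt2 genes were tested and 4 were higher without correction, and 3 with it. Their transcripts were 7317 to 19823 bp long (median 14967 bp), and 65.3% of genes of 8000 bp and over outside the set were higher. Kmt2c, which marks enhancers, had 5.41, 5.61 and 6.14 FPKM in the KO libraries and 3.83, 4.18 and 4.36 FPKM in the WT libraries. The groups did not overlap, and Kmt2c was 1.34-fold higher (log2 fold change 0.42 ± 0.06, approximate SE, n = 3 each, edgeR, adjusted p = 0.000186; 0.13 and 0.0137 with correction). Its relative Kmt2d had 7.08, 7.81 and 7.96 FPKM in KO and 5.42, 5.63 and 5.91 FPKM in WT. It rose 1.30-fold (0.37 ± 0.05, edgeR, adjusted p = 0.000163; 0.14 and 0.0275 with correction), and every KO library was above every WT library. Kmt2e, a family member that binds methylated histone H3 and is thought to lack enzyme activity, had 13.8, 13.0 and 14.0 FPKM in KO and 10.6, 10.4 and 10.7 FPKM in WT. The rise of Kmt2e was 1.24-fold (0.31 ± 0.05, edgeR, adjusted p = 0.000261; 0.12 and 0.0298 with correction), again without overlap. With a correction for length alone, the adjusted p was 0.740 for Kmt2d and 0.0553 for Kmt2c (edgeR).

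Kmt2a, the MLL1 gene, averaged 7.29 ± 0.568 FPKM in KO and 5.65 ± 0.328 FPKM in WT (SD, n = 3 each), and it passed without the correction (edgeR, adjusted p = 0.00127) and with the implied length (0.14, adjusted p = 0.0211), but not with the annotated length (0.312). Setd2, which writes lysine 36 methylation along transcribed genes, averaged 12.8 ± 0.678 FPKM in KO and 9.69 ± 0.710 FPKM in WT, with adjusted p-values of 0.000634 without and 0.0901 with the correction, and 0.0247 with the implied length (edgeR). Setd1b, a lysine 4 writer related to Setd1a, passed in both fits, at log2 fold changes of 0.26 and 0.12 (edgeR, 0.00676 and 0.0310 as adjusted p-values). Setdb1, which writes lysine 9 methylation, and Setd7 rose 1.16-fold and 1.15-fold without the correction and did not pass with it. With the implied length Setdb1 passed (edgeR, adjusted p = 0.0151) and Setd7 did not (0.278). Kmt2b, Setd1a, Setd5 and Setdb2 did not pass in either fit. Setd3, an enzyme known to methylate actin, had the highest level of the class, at 18.3 ± 0.269 FPKM in KO and 19.0 ± 0.222 FPKM in WT. Its log2 fold change of -0.11 passed with the correction (edgeR, adjusted p = 0.0286) and not without it (0.0508).

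Writers of histone H4 lysine 20 methylation moved in opposite directions. Kmt5a, which adds the first methyl group and acts in the cell cycle, had 9.49, 9.96 and 10.1 FPKM in the KO libraries and 11.9, 11.6 and 11.6 FPKM in the WT libraries. All KO values were below all WT values, and the fall was 1.23-fold (log2 fold change -0.30 ± 0.04, edgeR, adjusted p = 0.000263; -0.25 and 0.000555 with correction). Kmt5b, which adds further methyl groups, had 3.90, 4.01 and 4.34 FPKM in KO and 3.22, 3.00 and 3.19 FPKM in WT. It was 1.25-fold higher (0.32 ± 0.05, edgeR, adjusted p = 0.000582; 0.18 and 0.0123 with correction). With the length implied by the table, the adjusted p of Kmt5b was 0.0630. Kmt5c, a relative with the same activity, had 8.48, 10.3 and 8.56 FPKM in KO and 7.22, 7.45 and 7.26 FPKM in WT, with KO library 2 the highest. The rise of Kmt5c was 1.20-fold (0.26 ± 0.08, edgeR, adjusted p = 0.0167; 0.31 and 0.00243 with correction), and without KO library 2 it did not pass (adjusted p = 0.0547). Per library, the ratio of Kmt5b to Kmt5a in FPKM was 0.411, 0.402 and 0.428 in KO and 0.272, 0.258 and 0.275 in WT. That of Kmt5c to Kmt5a was 0.893, 1.03 and 0.845 in KO and 0.609, 0.640 and 0.625 in WT. Neither ratio overlapped between the genotypes. That follows from the single genes, since Kmt5a lay below and Kmt5b and Kmt5c above WT in every KO library, and it adds no support. The ratios are without the length and GC correction. These pairs were chosen after their values were seen and no test was made of the ratios. The proliferation genes that were lower beside Kmt5a are given above, and their part in it was not tested.

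The promoters of Kmt5a and Kmt5c are shown because Kmt5a fell and Kmt5c rose with and without the correction. Each is the 250 bases before the RefSeq start on the plus strand (GRCm38.p6, from RefSeq), and capitals mark GGGCGG, the GC box, searched on both strands (CCGCCC on the other).
Kmt5a, chr5:124439680-124439929: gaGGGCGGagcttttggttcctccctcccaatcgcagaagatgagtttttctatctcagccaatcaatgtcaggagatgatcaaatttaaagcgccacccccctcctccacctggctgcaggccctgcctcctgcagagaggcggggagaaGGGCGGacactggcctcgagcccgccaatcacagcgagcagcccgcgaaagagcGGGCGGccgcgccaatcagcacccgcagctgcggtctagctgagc
Kmt5c, chr7:4739877-4740126: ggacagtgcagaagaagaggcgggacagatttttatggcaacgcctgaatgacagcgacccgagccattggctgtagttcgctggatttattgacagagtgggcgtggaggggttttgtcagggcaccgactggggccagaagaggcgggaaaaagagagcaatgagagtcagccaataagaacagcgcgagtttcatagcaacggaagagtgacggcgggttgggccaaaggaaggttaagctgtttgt
The Kmt5a window held 3 GC boxes and 16 CpG, and that of Kmt5c 0 GC boxes and 13 CpG. The deposited table begins Kmt5c at 4740115, inside its window.

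Setd6, known to methylate the NF-kappaB subunit RelA, had the lowest fold change of all tested members. Its level was 1.26, 1.38 and 1.41 FPKM in the KO libraries and 2.27, 2.39 and 1.76 FPKM in the WT libraries. WT library 3 lay nearest to the KO libraries, and the groups did not overlap. The fall was 1.65-fold (log2 fold change -0.72 ± 0.17, edgeR, adjusted p = 0.00524; -0.57 and 0.0223 with correction). Its transcript, 1707 bp, is the shortest of the tested methyltransferases. Setd6 lies on the plus strand of chromosome 8 from 95715881 to 95719010, as the table lists it.

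**Figure D4:**
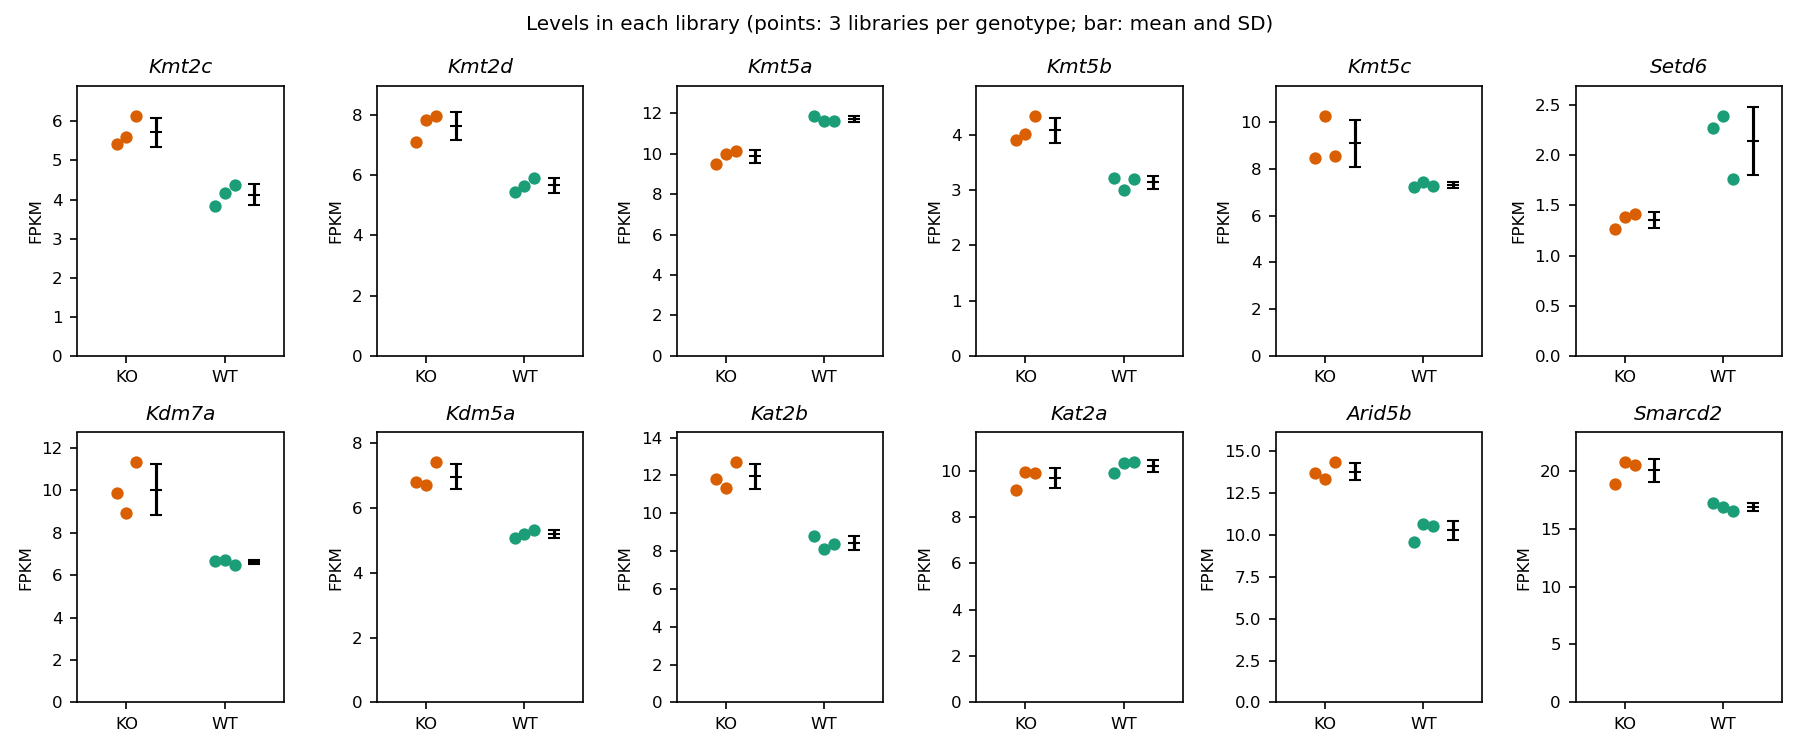
FPKM (vertical axis, from 0) of 12 members in each library, with 3 KO points (orange) left of 3 WT points (green), and the mean with its SD as a black bar. The KO points lie above the WT points for Kmt2c, Kmt2d, Kmt5b, Kmt5c, Kdm7a, Kdm5a, Kat2b, Arid5b and Smarcd2, below them for Kmt5a and Setd6, and overlap them for Kat2a.

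Histone demethylases had 7 of 14 tested members higher and 0 lower without correction (median log2 fold change 0.13), and 1 higher and 1 lower with it (median 0.06). Among all genes tested, 20.3% were higher and 19.4% lower without correction, and 14.2% and 16.3% with it. The class median length was 5084 bp. In the bin of 4000 to 6000 bp outside the set, 32.8% were higher and 8.82% lower without correction. Kdm7a, which removes repressive methyl groups from lysines 9 and 27 of histone H3, had 9.86, 8.94 and 11.3 FPKM in the KO libraries and 6.66, 6.71 and 6.50 FPKM in the WT libraries. All KO values were above all WT values, and KO library 3 was the highest. Its rise of 1.46-fold was the largest among the tested members (log2 fold change 0.55 ± 0.07, edgeR, adjusted p = 0.00012; 0.19 and 0.00663 with correction). Kdm5a, a lysine 4 demethylase, had 6.79, 6.70 and 7.39 FPKM in KO and 5.05, 5.20 and 5.32 FPKM in WT. Its groups did not overlap, but the 1.29-fold rise (0.37 ± 0.05, edgeR, adjusted p = 0.000118) did not pass with correction (0.06, adjusted p = 0.163), while with the implied length it did (0.12, adjusted p = 0.0183). Kdm3b, a lysine 9 demethylase, had 8.30, 8.22 and 8.52 FPKM in KO and 6.90, 7.31 and 7.40 FPKM in WT, without overlap. It was 1.12-fold higher (0.16 ± 0.04, edgeR, adjusted p = 0.0115), and did not pass with the correction (0.07, adjusted p = 0.142).

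Kdm6b, the lysine 27 demethylase known from inflammatory macrophages, stood in contrast to Kdm7a. It had 3.76, 4.46 and 3.66 FPKM in KO and 4.17, 4.42 and 4.65 FPKM in WT, which overlap. Its log2 fold change of -0.21 ± 0.08 did not pass (edgeR, adjusted p = 0.0582), and with the correction it was lower (-0.31, adjusted p = 0.00408). The ratio of Kdm7a to Kdm6b in FPKM was 2.63, 2.00 and 3.09 in KO and 1.60, 1.52 and 1.40 in WT, a pair also chosen after its values were seen. Kdm8, a low gene just inside the filter, had 1.54, 0.729 and 0.666 FPKM in KO and 1.18, 1.09 and 1.21 FPKM in WT. KO library 1 was the highest of the 6, and the difference was not called (log2 fold change -0.30 ± 0.29, edgeR, adjusted p = 0.445). Without KO library 1 Kdm8 was lower (-0.80, adjusted p = 0.0112). Kdm2a, Kdm3a, Kdm4c and Kdm5b were 1.10-fold to 1.14-fold higher, and the call depended on single libraries. Without WT library 1 or 2 the adjusted p of Kdm2a was 0.0560 and 0.0631. For Kdm3a it was 0.0714 without KO library 3, 0.0595 without WT library 2 and 0.0502 without WT library 3. For Kdm5b it was 0.0824 without KO library 1, 0.0719 without KO library 3 and 0.0796 without WT library 1. For Kdm4c it was 0.0642, 0.0527 and 0.167 without KO library 1, 2 or 3 and 0.0947 and 0.138 without WT library 2 or 3. Kdm1a, the lysine 4 demethylase LSD1, had 9.67 ± 0.512 FPKM in KO and 9.24 ± 0.464 FPKM in WT and was not called (edgeR, adjusted p = 0.884).

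Smarc genes, which encode the ATPases and core subunits of BAF and related complexes, had 4 of 13 tested members higher and 0 lower (median log2 fold change 0.01, and -0.02 to 0.14 on leaving out each library), and 2 higher and 3 lower with the correction (median -0.01). The shares over all genes tested were 20.3% higher and 19.4% lower, and 14.2% and 16.3% with the correction. The class median length was 4562 bp. In the bin of 4000 to 6000 bp outside the set, 32.8% were higher and 8.82% lower without correction. Smarca5, the ATPase of ISWI complexes, had 10.1, 10.8 and 11.6 FPKM in KO and 8.00, 8.65 and 7.87 FPKM in WT. It was 1.28-fold higher without overlap (0.35 ± 0.05, edgeR, adjusted p = 0.000345), and it was not called with the correction (0.10, adjusted p = 0.104) but was with the implied length (0.15, adjusted p = 0.0263). Smarca2, the BAF ATPase also called BRM, had 6.39, 6.77 and 6.76 FPKM in KO and 5.27, 5.65 and 5.62 FPKM in WT. Its groups did not overlap, and it rose 1.16-fold (0.21 ± 0.04, edgeR, adjusted p = 0.00224; 0.12 and 0.0136 with correction). With the length implied by the table the adjusted p of Smarca2 was 0.111. The other BAF ATPase gene, Smarca4 (BRG1), was among the most abundant members, with 28.2, 29.4 and 28.5 FPKM in KO and 25.3, 29.3 and 28.5 FPKM in WT. Its groups overlapped, and its log2 fold change was -0.00 ± 0.05 (edgeR, adjusted p = 0.971).

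Smarcd2, a BAF subunit known for its part in neutrophil granule formation, had 18.9, 20.7 and 20.5 FPKM in KO and 17.2, 16.9 and 16.5 FPKM in WT. Every KO library was above every WT library, and the rise was 1.14-fold (0.19 ± 0.04, edgeR, adjusted p = 0.00495; 0.27 and 0.000633 with correction). Its transcript is 2747 bp long, in a bin in which few genes were higher. The summed level of the neutrophil markers, given above, moved the other way. Smarcd1 and Smarcd3, its relatives, were not called, with Smarcd3 just inside the filter at 1.24 ± 0.186 FPKM in KO and 1.04 ± 0.0505 FPKM in WT. Smarce1, a DNA-binding BAF subunit, had 8.38, 8.71 and 9.23 FPKM in KO and 9.14, 9.58 and 7.91 FPKM in WT. The groups overlapped, and it was lower with the correction only (-0.20, edgeR, adjusted p = 0.0203), against -0.07 ± 0.07 and 0.415 without it. Core subunit genes Smarcb1 and Smarcc1 likewise passed as lower with the correction only, at -0.18 and -0.16 (edgeR, adjusted p = 0.0254 and 0.00529). Smarcc1 was also lower under the implied length (adjusted p = 0.0173), and Smarcb1 was not called (-0.11, adjusted p = 0.160). Smarcad1 was 1.14-fold higher (edgeR, adjusted p = 0.0417), a call lost on leaving out each library but KO library 2 (adjusted p = 0.0514 and 0.160 without KO library 1 or 3, and 0.0729, 0.0651 and 0.108 without WT library 1, 2 or 3). The pseudogene Smarce1-ps1 averaged 1.92 ± 0.180 FPKM in KO and 1.86 ± 0.440 FPKM in WT. How reads that match both it and Smarce1 were shared is not given in the sources used here.

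Chd genes encode remodelling ATPases with chromodomains, and their transcripts were the longest of the 8 classes, with a median of 8509 bp. Of 9 tested, 4 were higher and 0 lower (median log2 fold change 0.11), and with the correction 0 were higher and 1 lower (median -0.01). Over all genes tested, 20.3% were higher and 19.4% lower, and 14.2% and 16.3% with the correction. Genes of 8000 bp and over outside the set, the bin of the class median, were 65.3% higher and 3.27% lower without correction. Chd9 had 5.20, 5.28 and 5.85 FPKM in KO and 4.07, 4.09 and 4.29 FPKM in WT, and was 1.26-fold higher (0.34 ± 0.05, edgeR, adjusted p = 0.000301; 0.05 and 0.343 with correction). Chd1, which binds lysine 4 methylation at active genes, had 8.69, 8.25 and 8.36 FPKM in KO and 6.65, 6.76 and 6.74 FPKM in WT. It was 1.21-fold higher (0.28 ± 0.04, edgeR, adjusted p = 0.000548; 0.03 and 0.696 with correction). Neither gene overlapped between the genotypes. Chd6 had 3.55, 3.57 and 3.94 FPKM in KO and 2.74, 3.04 and 2.97 FPKM in WT, and its 1.22-fold rise (0.28 ± 0.05, edgeR, adjusted p = 0.00185) did not pass with correction either (0.06, adjusted p = 0.293). Chd8 was 1.12-fold higher without the correction, a call lost without WT library 1 or 3 (edgeR, adjusted p = 0.0549 and 0.0570). Chd7, mutated in human CHARGE syndrome, had 1.61, 1.61 and 1.68 FPKM in KO and 1.67, 1.81 and 1.60 FPKM in WT, which overlap. It was lower with the correction only (-0.29, edgeR, adjusted p = 0.00824), against -0.10 ± 0.07 and 0.258 without it.

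Chd4 and Chd3, the ATPases of the NuRD complex, had the highest levels of all members. Chd4 stood at 55.1, 56.4 and 55.6 FPKM in KO and 49.0, 51.5 and 52.5 FPKM in WT. Chd3 stood at 41.5, 40.7 and 40.9 FPKM in KO and 36.2, 37.5 and 38.0 FPKM in WT. Although the groups did not overlap in FPKM, neither gene passed (0.07 ± 0.04 with adjusted p = 0.175 for Chd4, and 0.09 ± 0.04 with adjusted p = 0.112 for Chd3, both edgeR). Next in level came the BAF genes Smarcc2, at 37.5 ± 2.02 FPKM in KO and 36.0 ± 1.50 FPKM in WT, and Smarca4, followed by Brd2. FPKM is scaled by length and can be compared between genes, within the limits of the lengths the authors used.

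Arid genes, whose proteins share a DNA-binding domain, had the largest share of members higher. Of 9 tested, 7 were higher and 0 lower (median log2 fold change 0.26, median length 5864 bp), and 4 were higher and 1 lower with the correction (median 0.08). Among all genes tested, 20.3% were higher and 19.4% lower, and 14.2% and 16.3% with the correction. Genes of 4000 to 6000 bp outside the set were 32.8% higher and 8.82% lower without correction. Arid4a, a partner of the Sin3 deacetylase complex, had 10.9, 11.2 and 11.6 FPKM in KO and 8.60, 8.73 and 8.65 FPKM in WT. It was 1.25-fold higher (0.32 ± 0.04, edgeR, adjusted p = 0.000167; 0.18 and 0.0038 with correction). Arid5b, a partner of the demethylase Phf2, had 13.7, 13.3 and 14.3 FPKM in KO and 9.60, 10.6 and 10.6 FPKM in WT. The groups of both genes did not overlap, and Arid5b rose 1.29-fold (0.37 ± 0.05, edgeR, adjusted p = 0.000173; 0.19 and 0.0024 with correction). Arid1b, a BAF subunit, had 9.22, 10.2 and 9.71 FPKM in KO and 7.18, 8.23 and 7.98 FPKM in WT. It was 1.20-fold higher without overlap (0.26 ± 0.05, edgeR, adjusted p = 0.00264), and it did not pass with the correction (0.08, adjusted p = 0.140) but did with the implied length (0.15, adjusted p = 0.0105). Its BAF relative Arid1a rose 1.15-fold without the correction, and it too passed with the implied length (edgeR, adjusted p = 0.0226) and not with the annotated one (0.0937).

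Arid3b, low at 1.55 ± 0.0381 FPKM in KO and 1.13 ± 0.0669 FPKM in WT, had the largest rise of the members with the length and GC correction, at 0.41 ± 0.09 (edgeR, adjusted p = 0.00663), close to its 0.40 ± 0.09 without correction. With the implied length it stood at 0.36, below Kat2b at 0.42. Its relative Arid3a, first known as a factor at immunoglobulin genes of B cells, was higher in both fits, at 0.19 and 0.14 (edgeR, adjusted p = 0.0177 and 0.0477). Arid2, a subunit of the PBAF form of BAF, averaged 6.06 ± 0.0229 FPKM in KO and 5.49 ± 0.190 FPKM in WT. It was not called without correction (log2 fold change 0.09, edgeR, adjusted p = 0.133) and was lower with it (-0.13, adjusted p = 0.0335), so its direction differed between the fits. With the implied length it was not called (-0.08, adjusted p = 0.180). Arid5a, known in mice to stabilise Il6 mRNA, had 1.27, 1.49 and 1.24 FPKM in KO and 1.07, 1.42 and 1.15 FPKM in WT. The groups overlapped and no change was called (0.08 ± 0.11, edgeR, adjusted p = 0.620).

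Deacetylases remove acetyl groups from histones and other proteins. Of 11 tested, 1 was higher and 2 were lower (median log2 fold change -0.06, the value of the pseudogene Hdac1-ps, and median length 3585 bp). With the correction 0 were higher and 1 lower (median -0.10). Over all genes tested, 20.3% were higher and 19.4% lower, and 14.2% and 16.3% with the correction. Genes of 2000 to 4000 bp outside the set were 12.6% higher and 17.6% lower without correction. Hdac9, a class IIa deacetylase, had 1.45, 1.38 and 1.61 FPKM in KO and 1.18, 1.20 and 1.07 FPKM in WT. It was 1.24-fold higher without overlap (0.31 ± 0.08, edgeR, adjusted p = 0.00971), and it did not pass with the correction (0.09, adjusted p = 0.404) or in limma on log2(FPKM + 1) (adjusted p = 0.0506). Hdac7, of the same class, had 4.35, 4.71 and 4.35 FPKM in KO and 4.69, 5.49 and 4.67 FPKM in WT, which overlap. Its log2 fold change was -0.20 ± 0.07 (edgeR, adjusted p = 0.04999, just under the threshold), and -0.24 with the correction (adjusted p = 0.0153). The uncorrected call was lost without KO library 1 (adjusted p = 0.119), KO library 3 (0.138) or WT library 2 (0.219), with median-ratio scaling (0.0529) and when limma was used on log2(FPKM + 1) (0.205).

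Hdac1, of class I, had 10.6, 11.5 and 10.6 FPKM in KO and 11.1, 12.1 and 13.0 FPKM in WT, also with overlap. It was 1.15-fold lower (-0.20 ± 0.07, edgeR, adjusted p = 0.0330), and with the correction it did not pass (-0.10, adjusted p = 0.301). The call was lost without KO library 1 (adjusted p = 0.0916), KO library 3 (0.104), WT library 2 (0.0725) or WT library 3 (0.141), and when limma was used on log2(FPKM + 1) (0.130). The pseudogene Hdac1-ps was listed at a like level, 10.6 ± 1.04 FPKM in KO and 10.7 ± 1.16 FPKM in WT. The split of reads between Hdac1 and its pseudogene is not known, and both values are uncertain. Hdac2, Hdac3 and Hdac8, the other class I genes, had log2 fold changes of -0.08, -0.08 and -0.16 and were not called. With the implied length Hdac2 was lower (-0.18, edgeR, adjusted p = 0.0349).

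Acetyltransferases had 4 of 9 tested members higher and 0 lower (median log2 fold change 0.04), and 1 higher and 0 lower with the correction (median 0.12). The shares over all genes tested were 20.3% higher and 19.4% lower, and 14.2% and 16.3% with the correction. The class median length was 3801 bp. In the bin of 2000 to 4000 bp outside the set, 12.6% were higher and 17.6% lower without correction. Kat2b, also called PCAF, had 11.8, 11.4 and 12.7 FPKM in KO and 8.80, 8.12 and 8.37 FPKM in WT. All KO values were above all WT values. Kat2b rose 1.37-fold (0.45 ± 0.06, edgeR, adjusted p = 9.59e-05, the smallest of the members; 0.36 and 0.000242 with correction, and 0.42 and 8.17e-05 with the implied length). Kat2a, or GCN5, which takes the same place in the SAGA and ATAC complexes, had 9.18, 9.94 and 9.91 FPKM in KO and 9.92, 10.3 and 10.4 FPKM in WT. The groups overlapped and no change was called (-0.13 ± 0.06, edgeR, adjusted p = 0.0919). Their ratio, Kat2b over Kat2a in FPKM, was 1.29, 1.14 and 1.28 in KO and 0.887, 0.784 and 0.808 in WT, another pair chosen after its values were seen. Every KO library thus held more Kat2b than Kat2a per unit of length, and every WT library less.

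The promoter of Kat2b is shown because its gene had the smallest p of the members. It is taken in the same way, on the plus strand.
Kat2b, chr17:53566721-53566970: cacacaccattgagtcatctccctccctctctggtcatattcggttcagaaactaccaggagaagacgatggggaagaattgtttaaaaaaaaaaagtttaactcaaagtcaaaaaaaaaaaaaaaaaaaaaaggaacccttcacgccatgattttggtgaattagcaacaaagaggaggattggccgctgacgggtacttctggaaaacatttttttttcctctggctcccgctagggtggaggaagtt
It held 0 GC boxes and 6 CpG, fewer CpG than either Kmt5 window. The deposited table begins Kat2b at 53566861, inside the window.

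Kat6a, known as MOZ, had 12.5, 13.0 and 14.3 FPKM in KO and 9.22, 10.5 and 10.8 FPKM in WT. It was 1.25-fold higher without overlap (0.33 ± 0.06, edgeR, adjusted p = 0.00181), and did not pass with the correction (0.12, adjusted p = 0.0681), while with the implied length it did (0.21, adjusted p = 0.0113). Ep300, the p300 enhancer acetyltransferase, had 11.8, 12.4 and 12.7 FPKM in KO and 9.85, 10.6 and 10.6 FPKM in WT. Its 1.15-fold rise (0.20 ± 0.05, edgeR, adjusted p = 0.00476) did not pass with correction (0.02, adjusted p = 0.621), and with length alone corrected the log2 fold change was -0.03. Kat6b was 1.24-fold higher without correction only. Kat5, Kat7, Kat8 and Kat14 did not pass in either fit.

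Brd genes, readers of acetylated histones, had 1 of 8 tested members higher and 0 lower (median log2 fold change 0.08), and 0 higher and 1 lower with the correction (median 0.03). Among all genes tested, 20.3% were higher and 19.4% lower, and 14.2% and 16.3% with the correction. The class median length was 4613 bp. In the bin of 4000 to 6000 bp outside the set, 32.8% were higher and 8.82% lower without correction. Brd1, a scaffold of Kat6 and Kat7 complexes, had 10.8, 11.1 and 10.6 FPKM in KO and 9.47, 9.07 and 10.1 FPKM in WT. It was 1.09-fold higher (0.13 ± 0.05, edgeR, adjusted p = 0.0489; 0.172 with correction). That call was lost without KO library 1 or 2 (adjusted p = 0.133 and 0.105) and without WT library 1 or 2 (0.108 and 0.190), and with no FPKM filter (0.0646). Brd7, of the PBAF complex, had 12.4, 13.2 and 13.7 FPKM in KO and 12.0, 11.7 and 11.3 FPKM in WT, and Brd3, of the BET family, had 7.45, 7.63 and 7.62 FPKM in KO and 6.58, 6.60 and 7.06 FPKM in WT. Neither overlapped between genotypes and neither passed, both at a log2 fold change of 0.11 (edgeR, adjusted p = 0.0777 and 0.0825). Without WT library 3 Brd3 was higher (0.15, adjusted p = 0.0394), and both were when limma was used on log2(FPKM + 1) (adjusted p = 0.0402 for Brd7 and 0.0377 for Brd3). Brd3os, the gene beside Brd3, had 1.49, 1.22 and 1.23 FPKM in KO and 1.51, 1.50 and 2.19 FPKM in WT. All its KO values were below its WT values, by little for KO library 1, and it was not called (-0.45 ± 0.20, edgeR, adjusted p = 0.0957). Brd2, of the BET family too, averaged 28.5 ± 1.67 FPKM in KO and 26.8 ± 0.858 FPKM in WT (SD, n = 3 each), and was not called. Brd9, of a further form of BAF, was lower with the correction only (-0.19, edgeR, adjusted p = 0.0309).

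Below the filter lay 11 members: Setd4, Kdm4d, Kdm4dl, Kdm6bos, Smarca1, Smarca5-ps, Chd5, Arid3c, Hdac11, Kat2b-ps and Brd8dc. Just outside it, Hdac11 had 1.08, 1.30 and 0.893 FPKM in KO and 0.645, 0.779 and 0.688 FPKM in WT. Smarca1, an ISWI ATPase, had 0.930, 0.720 and 1.12 FPKM in KO and 0.666, 0.498 and 0.552 FPKM in WT. For both, every KO library lay above every WT library. In a fit without the FPKM filter their log2 fold changes were 0.57 ± 0.18 and 0.63 ± 0.18 (edgeR, adjusted p = 0.0307 and 0.0231). Setd4, Smarca5-ps and Chd5 were tested in that fit too and did not pass. The other 6 had too few counts for any test.

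For 12 tested members, another tested gene overlaps on the chromosome. The libraries keep the strand, but whether counting used it is not given in the sources used here. Kmt2e overlaps Srpk2, Setdb1 overlaps Cers2, Kdm5a overlaps Ccdc77, Smarcc1 overlaps Dhx30, Arid4b overlaps Ggps1 and Hdac7 overlaps Slc48a1, all on opposite strands. Chd2 overlaps 1810026B05Rik on the same strand, where the strand cannot separate the reads. Values of these genes may hold reads of their neighbours.

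Genes of the same complexes and pathways that the name rule leaves out were counted in 9 lists. Of their 180 genes, 166 were tested, with 53 higher and 19 lower without correction (median log2 fold change 0.04) and 21 higher and 19 lower with it (median 0.02). These are 31.9% higher and 11.4% lower, against 20.3% and 19.4% of all genes tested, and with the correction 12.7% and 11.4%, against 14.2% and 16.3%. The counts per list that follow are without correction. Acetyltransferase partners had 13 of 34 higher and 0 lower. Crebbp, the paralogue of Ep300, had 4.94, 5.64 and 5.65 FPKM in KO and 3.73, 3.55 and 3.79 FPKM in WT, and passed in both fits (0.50 and 0.30, edgeR, adjusted p = 0.00125 with correction). Polycomb genes had 10 of 27 higher and 2 lower. Ezh1, a lysine 27 methyltransferase of resting cells, averaged 9.67 ± 0.0794 FPKM in KO and 7.61 ± 0.230 FPKM in WT and was also higher in both fits (0.29 and 0.27). DNA methylation genes had 7 of 11 higher and 2 lower. The largest change of this list was that of Tdg, at 5.33 ± 0.136 FPKM in KO and 1.42 ± 0.104 FPKM in WT. It was higher in both fits (1.85 and 1.84, edgeR, adjusted p = 4.73e-08 without correction). Tdg has a pseudogene in the deposited table, and how reads that match both were shared is not given in the sources used here. Uhrf1, which helps copy DNA methylation in dividing cells, averaged 5.20 ± 0.307 FPKM in KO and 7.38 ± 0.435 FPKM in WT and was lower in both (-0.56 and -0.53).

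In the other 6 lists the share higher, 16.7% to 29.2%, lay nearer to the 20.3% of all genes tested than in the 3 lists above. This contrast holds without correction only. With it, 17.6% of acetyltransferase partners, 18.5% of Polycomb genes and 18.2% of DNA methylation genes were higher, against 14.2% of all genes tested. The other 6 lists then ran from 0% (BAF partners) to 33.3% (sirtuins). Partners of NuRD, Sin3, CoREST and NCoR had 7 of 24 higher and 5 lower, and Tbl1xr1, an NCoR subunit, averaged 11.6 ± 0.620 FPKM in KO and 7.41 ± 0.0367 FPKM in WT (0.60 and 0.32 with correction, called in both). Partners of ISWI, INO80 and SRCAP had 7 of 28 higher and 4 lower, with Ino80d, an INO80 subunit, at 4.60 ± 0.554 FPKM in KO and 2.97 ± 0.0903 FPKM in WT (0.57 and 0.25, called in both). Further methyltransferases had 4 of 15 higher and 3 lower, with Prmt1, an arginine methyltransferase, at 11.6 ± 0.0393 FPKM in KO and 14.1 ± 0.515 FPKM in WT (-0.34 and -0.23, called in both). Partners of the lysine 4 writers had 2 of 11 higher and 2 lower, with Wdr82 at 12.0 ± 0.357 FPKM in KO and 10.3 ± 0.265 FPKM in WT (0.17 and 0.15, called in both). BAF partners had 2 of 10 higher and 1 lower, and sirtuins 1 of 6 higher and 0 lower. Actl6a, a BAF subunit of dividing cells, averaged 5.86 ± 0.170 FPKM in KO and 7.52 ± 0.180 FPKM in WT (-0.41 and -0.31, called in both). Sirt1, a deacetylase that needs NAD, averaged 3.55 ± 0.0910 FPKM in KO and 2.60 ± 0.293 FPKM in WT (0.39 and 0.28, called in both).

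Promoter windows like those shown for Kmt5a, Kmt5c and Kat2b were found for 72 of the 101 members. Their median was 20 CpG, against 16 in the 8545 tested genes with a window and 6 in all 27025. A GC box was found in 68.1% of the member windows, against 60.7% of tested genes and 32.9% of all genes. It was found in 72.4% of the 29 windows of members called higher without correction and in 64.9% of the 37 windows of tested coding members not called higher. The ETS motif CCGGAAGT was found in 1.39% of member windows, 6.55% of tested genes and 2.93% of all genes. The CREB motif TGACGTCA was found in 0 of the 72 member windows, 2.75% of tested genes and 1.62% of all genes. These matches are descriptions of the letters in the windows. For members, the RefSeq start nearest to the gene start in the deposited table was used, and for other genes the first listed start. The member and background shares thus come from windows chosen by unlike rules.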

How the data were processed

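The deposited table gives, for each gene and library, an FPKM value and an estimated count, both made by the authors, with the counts already whole numbers. Per the submitters' processing notes, the tools were StringTie 1.3.4d, HISAT2 2.0.4 and cutadapt 1.9. The genome build and the strand setting are not given in the sources used here. Among low deposited counts, 4 occurred 5769 times, 3 occurred 3204 times and 5 occurred 2041 times, so about 4 counts stood for 1 fragment. The floor was therefore 3 fragments, or 12 counts per library, and it covers counting error only. Gene IDs matched GENCODE M21 (GRCm38) for 27382 genes and all 101 members, 87 of them with identical coordinates.

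KO was compared with WT over the 11636 genes whose mean FPKM was 1 or more, by edgeR 4.0.16 (R 4.3.3) with TMM scaling and Benjamini-Hochberg adjustment at 0.05, two-sided. Standard errors are approximate, worked back from the F statistic. The length and GC correction is an offset from each library's loess trend (span 0.3) on length and GC of the longest transcript. Alternatives used limma 3.58.1, DESeq2 1.42.0, other filters and scalings, counts divided by 4, a replicate block and each library left out.

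The values of 1 member are not reported here, though it is included in the counts. Members and lists were chosen with earlier results of these data known. Members given in full are, in each class, the 3 with the smallest p and the one with the lowest fold change. Other members were named for their calls or their role after values were seen. In each other chromatin list, the gene with the smallest p was named. For DNA methylation this was Tdg, which has a pseudogene in the table, so the next, Uhrf1, was named as well. Replicates were not the same library deposited again: their chi-square over degrees of freedom was 3.42 to 6.88.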

Additional observations from a re-analysis of the deposited data

How the results depend on the processing

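Median-ratio scaling, DESeq2, no FPKM filter, a filter of 5 FPKM and counts divided by 4 kept the counts of members within 1.5 times. Members lower numbered 2 in limma with either pseudocount. With the length and GC correction 14 were higher and 11 lower, with length alone 12 and 11, and with the implied length 20 and 10. Replicate numbers did not pair the libraries (correlation of deviations 0.02, 0.19 and -0.04). With the replicate block 36 were higher and 4 lower, and with block and correction 16 and 11. Leaving out each library gave 33 to 36 higher and 2 to 6 lower, and with the correction 9 to 13 and 4 to 10.

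Class medians moved with the processing. In limma on log2(FPKM + 1) they were 0.14 for all members, 0.25 for methyltransferases, 0.15 for demethylases, 0.0599 for Smarc, -0.0064 for deacetylases, 0.0910 for acetyltransferases and 0.12 for Brd. With a pseudocount of 0.1 they were 0.16, 0.26, 0.18, 0.0650, -0.0068, 0.0991 and 0.14, with 0.16 for Chd and 0.32 for Arid. With the length and GC correction they were 0.0458 for all members, 0.0516 for methyltransferases, 0.0589 for demethylases, -0.0138 for Chd, 0.0793 for Arid, 0.12 for acetyltransferases and 0.0340 for Brd. With the replicate block added they were 0.0457, 0.0509, 0.0599, -0.0133, 0.0795, 0.12 and 0.0339. With length alone they were 0.0047, 0.0228, 0.0041, -0.0513, 0.0704, 0.0945 and -0.0258 in that order, with 0.0763 for Smarc. With the implied length they were 0.0375, 0.12, 0.0272, 0.0399 and 0.15 for the first 5 and -0.0080 for Brd. Leaving out single libraries gave -0.0160 to 0.14 for Smarc, 0.21 to 0.30 for Arid, -0.0946 to -0.0217 for deacetylases and 0.0343 to 0.11 for acetyltransferases. The Chd and Brd medians thus changed sign, and so did that of Smarc (-0.0074 with the 5 FPKM filter and -0.0071 with the length and GC correction).

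For the 31 members given in full, 548 values were recomputed. Of these, 464 kept direction and side of the threshold, 65 lost the call, 13 gained it and 6 changed sign. Sign changes were those of Arid5a (-0.0435 with length alone, -0.0223 with the implied length, -0.0052 without KO library 2 and -0.0039 without WT library 1, with up to 0.20 without WT library 2), Ep300 (-0.0339 with length alone) and Brd3 (-0.0056 with length alone). The cause was not tested. With 3 libraries per group, changes of low genes such as Kdm8 and Brd3os carry wide errors.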
